A study of Mus musculus with 2 samples.

Results

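Endothelial cells line the blood vessels of the developing face, and 10 genes that mark their identity were followed here in embryonic facial prominence. The genes were taken by symbol from the deposited GENCODE M21 gene tables: Pecam1, Cdh5, Emcn, Kdr, Flt1, Tek, Tie1, Sox17, Sox18 and Erg. These are 10 of the 55536 genes in the tables, and all 10 were present at a level of at least 1 TPM (a share of the transcript pool, corrected for length) in both libraries. Sox18 had the highest mean level and Tek the lowest, a span of 3.99-fold. The level of most genes was close in both libraries, and Sox17 was the most variable. Pecam1, Flt1, Emcn, Tek, Sox17 and Erg each spread over several transcripts.

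The group holds proteins of the endothelial surface, growth factor receptors and transcription factors. Kdr and Flt1 are receptors for the VEGF growth factors that drive vessel growth. Tek is the receptor for the angiopoietins, which steer vessel stability, and Tie1 is its partner. The transcription factors of the group act in endothelial cells of the embryo to switch on vessel genes and, in the mouse, Sox18 and Sox17 take part in lymphatic and arterial development.

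The samples were facial prominence tissue of healthy B6NCrl mouse embryos of both sexes at 12.5 days, with no treatment and no altered gene. Replicate 1 was a pool of 120 embryos and replicate 2 a pool of 88. Each library was made from 10 ng of RNA primed with oligo-dT and fragmented by Nextera tagmentation, with ERCC spike-in RNAs added. Both libraries formed 1 group, so that the data give levels in 1 tissue at 1 age and no comparison between conditions. The expected count, an estimated number of reads that need not be whole, summed to 28705073 in replicate 1 and 41092194 in replicate 2, of which spike-ins took 2.85% and 3.10%. Depth per gene is given by these counts, which ran over the 10 genes and both libraries between 274 and 3440. In a whole tissue, fewer endothelial cells and less RNA per cell cannot be told apart. All coordinates are on mm10.

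Pecam1 (ENSMUSG00000020717, chr11:106654217-106750628, minus strand) codes for the junction adhesion molecule CD31. It had 22.73 TPM in replicate 1 and 23.87 TPM in replicate 2, from 1274 and 1934 counts. Its mean of 23.3 ± 0.806 TPM (SD, n = 2) varied by 3.46% of the mean. The 2 libraries thus gave nearly the same Pecam1 level. The counts were divided among transcripts that code for different protein forms. The leading transcript, with 14 exons and 2091 coding bases, held 57.2% of the gene's TPM in replicate 1 and 53.8% in replicate 2. A transcript with 15 exons and 2148 coding bases held 20.8% and 30.7%. The leading transcript lacks a 57-base exon of the cytoplasmic tail that the longer one carries as exon 14 of 15 at chr11:106671742-106671798. This exon codes for a tyrosine motif through which the protein signals. It is printed from the mm10 genome because inclusion or skipping of these bases separates the leading transcripts. Capitals mark the exon and lower case the 12 bases of each neighbouring exon, read 5′ to 3′ on the minus strand.
Pecam1 exon: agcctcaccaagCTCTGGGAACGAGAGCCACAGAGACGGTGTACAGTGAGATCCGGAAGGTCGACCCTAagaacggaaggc
Transcripts with the exon made up 40.4% of the Pecam1 TPM that spans this point in replicate 1 and 44.6% in replicate 2 (42.5 ± 3.01%, SD, n = 2). In TPM this was 8.81 with the exon and 13.01 without it in replicate 1, and 10.4 with and 12.8 without it in replicate 2. The form without the exon was thus the more abundant in both libraries. A separate choice concerned a 303-base exon of the extracellular part, exon 4 of 16 in a longer transcript, which 84.2% of the TPM included in replicate 1 and 94.1% in replicate 2. Transcript shares are estimates: the deposited posterior SD was 78.7 of the 752 counts of the leading Pecam1 transcript in replicate 1 and 109 of 1053 in replicate 2. For the longer form it was 80.2 of 277 and 96.3 of 611.

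Pecam1 is also made by platelets and leukocytes, and markers of these cells were present. Of 7 megakaryocyte and platelet markers, 6 were at 1 TPM or more in both libraries, with a sum of 73.7 TPM in replicate 1 and 68.8 TPM in replicate 2. Pf4, a platelet chemokine, led them at 46.8 ± 3.60 TPM, followed by Ppbp at 9.33 and Itga2b at 5.92 TPM. All 6 general leukocyte markers were detected, with sums of 61.3 and 58.5 TPM (Coro1a 30.1, Laptm5 16.1, Cd52 6.36, Spi1 3.46, Cd53 2.53 and Ptprc 1.29 TPM on average). Of 8 macrophage markers 7 were detected, with sums of 63.3 and 64.6 TPM, led by C1qb at 22.7, C1qa at 13.1 and Csf1r at 8.81 TPM, with Fcgr1 lowest at 0.97 TPM. No marker of these lists was at 0. The part of blood cells in the Pecam1 level was not tested.

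Cdh5 (ENSMUSG00000031871, chr8:104101625-104144511, plus strand) codes for VE-cadherin, the adhesion protein of endothelial junctions. It had 17.75 TPM in replicate 1 and 17.55 TPM in replicate 2, from 1240 and 1769 counts, and averaged 17.65 ± 0.141 TPM. The libraries differed by 0.801% of the mean as an SD. Unlike Pecam1, it was nearly all 1 transcript, which has 12 exons and 2352 coding bases and held 97.1% in replicate 1 and 98.9% in replicate 2. The antisense gene Gm29682 lies within Cdh5 but shares 0 exon bases with it and had 1 count in replicate 1 and 0 in replicate 2.

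Emcn (ENSMUSG00000054690, chr3:137341067-137432185, plus strand) codes for endomucin, a sialomucin of the endothelial surface. It had 27.62 TPM in replicate 1 and 27.51 TPM in replicate 2, from 667 and 961 counts. Its mean of 27.6 ± 0.0778 TPM had the smallest SD of the 10 genes, 0.282% of the mean. This rank held with M21 only. With the older GENCODE release M4, Emcn had 25.09 and 25.78 TPM, farther apart than Cdh5 at 18.22 and 18.33 TPM. The Emcn total with M21 was divided among 3 main transcripts. Emcn-201 held 64.7% in replicate 1 and 70.2% in replicate 2, Emcn-204 held 21.6% and 16.2%, and Emcn-202 held 11.6% and 12.3%. Emcn-204 had 68.5 counts with a posterior SD of 12.9 in replicate 1 and 72.5 with an SD of 15.2 in replicate 2, so its shares are not separated between the libraries. Emcn-202 and Emcn-204 carry a 39-base exon that Emcn-201 lacks, at chr3:137403984-137404022 on the plus strand and exon 5 of 12 in Emcn-202. It is printed from mm10 as the piece that separates the leading form from the others, with the exon in capitals and 12 bases of each neighbouring exon in lower case.
Emcn exon: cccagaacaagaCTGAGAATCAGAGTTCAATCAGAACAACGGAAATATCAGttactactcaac
Transcripts with this exon made up 35.3% of the Emcn TPM in replicate 1 and 29.8% in replicate 2. The value depended on the annotation: with the older GENCODE release M4, which lacks Emcn-204, the same libraries gave 19.01% and 18.6%. The form without the exon led under both releases. A 114-base exon, exon 4 of 12 in Emcn-202, was in 76.3% of the Emcn TPM in replicate 1 and 82.5% in replicate 2 with M21, and in 96.8% and 98.1% with M4.

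**Figure D1:**
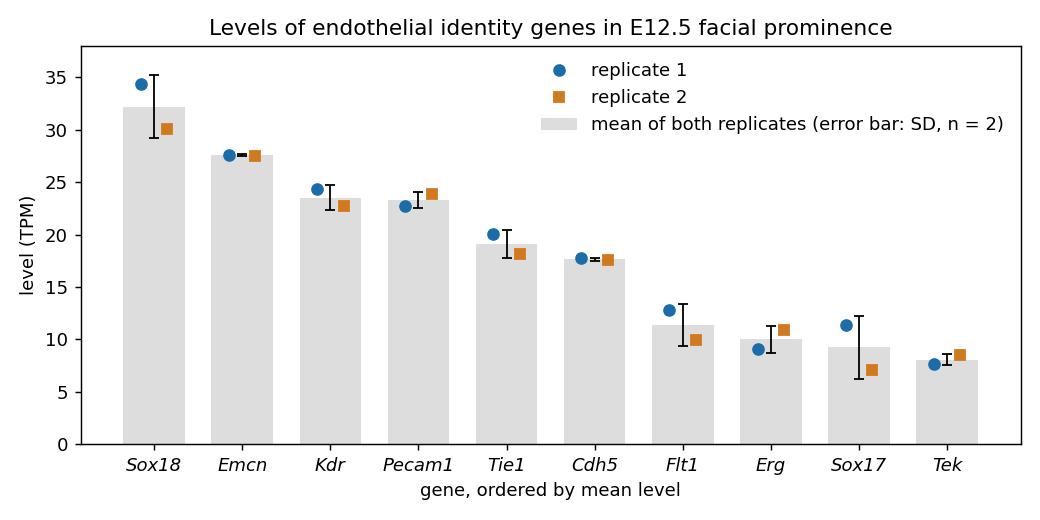
Levels of the 10 genes in TPM, ordered by mean; circles are replicate 1, squares replicate 2, bars the mean of both and error bars the SD (n = 2). Sox18 stands highest at 32.2 TPM and Tek lowest at 8.08 TPM, and the markers of Emcn and Cdh5 lie almost on each other while those of Sox17 lie far apart, at 11.38 and 7.10 TPM.

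Kdr (ENSMUSG00000062960, chr5:75932827-75978458, minus strand) codes for VEGFR2, the main signalling receptor for VEGF-A. It had 24.35 TPM in replicate 1 and 22.70 TPM in replicate 2 and averaged 23.5 ± 1.17 TPM. Its 2609 and 3440 counts were the most of the 10 genes, so that it is measured with the least counting error. The full-length transcript Kdr-201, with 30 exons, held 99.3% in replicate 1 and 98.8% in replicate 2, and the other annotated transcripts retain introns.

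Flt1 (ENSMUSG00000029648, chr5:147561604-147726011, minus strand) codes for VEGFR1, which binds VEGF-A, VEGF-B and PlGF. It had 12.82 TPM in replicate 1 and 9.94 TPM in replicate 2, from 1014 and 1170 counts, and averaged 11.4 ± 2.04 TPM. After Sox17 this was the widest spread of the 10, with an SD of 17.9% of the mean. The Flt1 signal was divided among 3 transcripts. The first, annotated as a processed transcript of 2049 bases with no coding sequence, held 42.9% in replicate 1 and 37.4% in replicate 2. The transcript that codes for the full receptor, over 30 exons and 3999 coding bases, held 31.3% and 32.5%. A coding transcript with 13 exons and 2064 coding bases held 20.7% and 24.2%. Such a short Flt1 form is known as the soluble receptor, a secreted decoy that binds ligand without signalling. The short transcript reads on past the shared exon into 92 coding bases of its own, at chr5:147639133-147639224. They are printed from mm10, minus strand, because they tell the short form from the full receptor; capitals mark them and lower case the last 12 shared bases.
Flt1 short form: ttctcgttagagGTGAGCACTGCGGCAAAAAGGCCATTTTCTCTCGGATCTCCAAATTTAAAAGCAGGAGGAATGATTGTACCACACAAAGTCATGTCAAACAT
Between these coding forms, the short form was at 2.66 TPM and the full receptor at 4.01 TPM in replicate 1, and in replicate 2 they were at 2.40 and 3.23 TPM. The short form thus made up 39.9% of their sum in replicate 1 and 42.6% in replicate 2 (41.3 ± 1.94%, SD, n = 2). The full receptor was the higher of them in both libraries. The posterior SD of the count of the short form was 14.9 of 303 in replicate 1 and 16.2 of 389 in replicate 2.

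Tek (ENSMUSG00000006386, chr4:94739289-94874976, plus strand) had the lowest mean level of the 10 genes, 8.08 ± 0.552 TPM, with 7.69 TPM in replicate 1 and 8.47 TPM in replicate 2. In replicate 2 Sox17 was lower, at 7.10 TPM. The counts of Tek were 635 and 933. Its leading transcript Tek-203 held 76.7% in replicate 1 and 70.5% in replicate 2. A 153-base exon, exon 4 of 23, was present in 91.2% of the coding Tek TPM in replicate 1 and 88.0% in replicate 2, so the form without it was a minor one in both. Tie1 (ENSMUSG00000033191, chr4:118471191-118490061, minus strand) had 20.03 TPM in replicate 1 and 18.18 TPM in replicate 2, from 1443 and 1848 counts (19.1 ± 1.31 TPM). The Tie1 transcript with 3402 coding bases held 88.9% and 85.2%. A shorter coding form of 1941 coding bases made up 4.198% of the sum of both coding forms in replicate 1 and 6.35% in replicate 2. Most of the Tie1 signal was thus from the full-length form.

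Since TPM is corrected for transcript length, levels of related genes can be set against each other. The level of Flt1 was 0.526 times that of Kdr in replicate 1 and 0.438 times in replicate 2 (0.482 ± 0.0627). These are levels of whole genes. The transcript of the full Flt1 receptor had only 4.01 TPM in replicate 1 and 3.23 TPM in replicate 2, and Kdr-201 had 24.18 and 22.42 TPM. The level of Tie1 was 2.60 times that of Tek in replicate 1 and 2.15 times in replicate 2 (2.38 ± 0.324). In both libraries the orphan receptor Tie1 was thus above the angiopoietin receptor Tek, and Kdr above Flt1. Cdh5 was at 0.781 times the Pecam1 level in replicate 1 and 0.735 times in replicate 2 (0.758 ± 0.0323). Sox17 was at 0.331 times the Sox18 level in replicate 1 and 0.236 times in replicate 2 (0.284 ± 0.0675).

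Sox18 (ENSMUSG00000046470, chr2:181669836-181671640, minus strand), a SOX transcription factor whose mutation causes the ragged mouse phenotype, had the highest level of the group. It had 34.34 TPM in replicate 1 and 30.10 TPM in replicate 2, from 963 and 1197 counts (32.2 ± 3.00 TPM). It has a single annotated transcript. The gene with the highest level was therefore a transcription factor and not one of the surface proteins.

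Sox17 (ENSMUSG00000025902, chr1:4490931-4497354, minus strand), a SOX factor of arterial endothelium and of endoderm, had 11.38 TPM in replicate 1 and 7.10 TPM in replicate 2. Its counts were 327 and 274, higher in replicate 1 although that library is the shallower one. The mean of 9.24 ± 3.03 TPM had an SD of 32.8% of the mean, the largest of the 10. The Sox17 transcripts were spread over 8 annotated forms, of which 5 held at least 5% in both libraries. A transcript with 2 exons and 511 coding bases led with 30.7% in replicate 1 and held 25.4% in replicate 2. There a transcript with 4 exons and 1257 coding bases was level with it at 25.6%, and in replicate 1 that one held 20.2%. The posterior SD of the 2-exon transcript was 8.30 of 47.8 counts in replicate 1 and 7.15 of 35.0 in replicate 2. For the 4-exon transcript it was 18.2 of 59.9 and 14.5 of 67.15, so their order is not settled. Both transcripts with this full coding frame of 1257 bases together held 41.7% of the Sox17 TPM in replicate 1 and 40.1% in replicate 2. The estimate of that share was close in both libraries while the gene's level was not: in replicate 1 the full-frame forms had 4.75 TPM and in replicate 2 they had 2.85 TPM. The gene Gm37587 on the opposite strand shares 804 exon bases with Sox17 and had 9 counts in replicate 1 and 10 in replicate 2. How strand was treated in the counting is not stated in the sources used here, and reads of this pair may not be separated.

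Markers of foregut endoderm and oral or nasal epithelium were read beside Sox17. Of 6 such genes, 3 had a count interval above 1 (Nkx2-1, Foxa1 and Sox2) and 3 held 1, beside 15.0% above 1 among all genes tested. In level, 4 were detected in both libraries, with a sum of 58.5 TPM in replicate 1 and 51.4 TPM in replicate 2, and none was at 0. Nkx2-1 had 3.46 TPM in replicate 1 and 1.27 TPM in replicate 2, and Foxa1 had 1.30 and 0.70 TPM. Sox2 had 10.6 and 8.95 TPM, and Cldn6 had 41.1 and 38.5 TPM. Shh had 1.18 and 1.24 TPM, and Foxa2 had 0.78 and 0.80 TPM. Their part in the Sox17 difference was not tested.

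Erg (ENSMUSG00000040732, chr16:95359169-95586593, minus strand), an ETS transcription factor needed for vessel stability, had 9.07 TPM in replicate 1 and 10.94 TPM in replicate 2 (10.0 ± 1.32 TPM). Its counts were 366 and 514. Once scaled to the library totals these counts were in a ratio of 1.02, replicate 1 over replicate 2, whereas TPM was lower in replicate 1. The scales part because the estimated mean transcript length of Erg was 2288 bases in replicate 1 and 1895 bases in replicate 2. The leading form was Erg-208 in replicate 1, with 34.3% there and 18.9% in replicate 2, and Erg-202 in replicate 2, with 36.4% there and 33.8% in replicate 1. With annotated starts less than 200 bases apart merged, the annotated Erg transcripts begin in 4 regions, here numbered from the most upstream. The first (Erg-206) held 17.0% of the TPM in replicate 1 and 4.57% in replicate 2, and the second (Erg-208 and Erg-201) held 34.3% and 18.9%. The third (Erg-204) held 4.41% and 13.2%, and the fourth (Erg-202, Erg-203, Erg-205 and Erg-207) held 44.4% and 63.4%. The estimate for the fourth start was the largest, 4.03 TPM in replicate 1 and 6.94 TPM in replicate 2, against 3.11 and 2.07 TPM for the second. Of the fourth, Erg-202 gave 3.07 and 3.98 TPM. Erg-202 is annotated with 1368 bases, of which 1365 code, so its annotated start need not be where transcription begins. The split among starts rests on few counts, and in replicate 1 it does not order the second and the fourth firmly. Erg-202 had 71.7 counts with a posterior SD of 17.3 in replicate 1 and 132 with an SD of 21.9 in replicate 2. Erg-205 had 0 counts with an SD of 9.81 in replicate 1 and 52.5 with an SD of 18.9 in replicate 2. Erg-208 had 180 counts with a posterior SD of 22.0 in replicate 1 and 171 with an SD of 26.4 in replicate 2. It is annotated with 3249 bases, and its counts were above those of Erg-202 in both libraries. Erg is also made in cartilage, and all 5 cartilage markers were detected, with sums of 565 TPM in replicate 1 and 521 TPM in replicate 2 (Col2a1 317, Sox9 112, Col9a1 104, Acan 5.08 and Matn1 4.37 TPM on average). The part of cartilage in the Erg level was not tested.

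RefSeq (GRCm38.p6) lists promoter windows, from 250 bases before to 50 bases after a start, for 6 of the 10 genes, 8 windows in all. The 3 windows of Erg lie at its first and second starts and at the upstream edge of the fourth. They are printed because the estimates divided Erg among these annotated starts. The last window holds the starts of Erg-203 and Erg-207 at 95459348 and 95459303, while Erg-202 and Erg-205 start just downstream of it, at 95459245. Each is read 5′ to 3′ on the minus strand, and capitals mark GGAA or its complement TTCC, the core that ETS factors such as Erg bind. They lie at chr16:95586544-95586843, chr16:95530316-95530615 and chr16:95459299-95459598.
Erg first start: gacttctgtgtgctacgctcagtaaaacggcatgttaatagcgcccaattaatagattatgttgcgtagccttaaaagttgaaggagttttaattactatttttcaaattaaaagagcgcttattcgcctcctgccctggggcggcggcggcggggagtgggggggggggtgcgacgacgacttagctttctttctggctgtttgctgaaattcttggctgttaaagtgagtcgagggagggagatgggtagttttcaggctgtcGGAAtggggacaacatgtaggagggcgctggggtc
Erg second start: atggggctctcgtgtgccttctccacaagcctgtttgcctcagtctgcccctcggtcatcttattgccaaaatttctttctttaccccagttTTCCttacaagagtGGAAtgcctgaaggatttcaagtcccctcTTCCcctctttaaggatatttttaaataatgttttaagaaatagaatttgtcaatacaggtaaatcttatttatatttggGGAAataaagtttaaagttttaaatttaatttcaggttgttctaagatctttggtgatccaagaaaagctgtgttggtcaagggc
Erg most downstream start: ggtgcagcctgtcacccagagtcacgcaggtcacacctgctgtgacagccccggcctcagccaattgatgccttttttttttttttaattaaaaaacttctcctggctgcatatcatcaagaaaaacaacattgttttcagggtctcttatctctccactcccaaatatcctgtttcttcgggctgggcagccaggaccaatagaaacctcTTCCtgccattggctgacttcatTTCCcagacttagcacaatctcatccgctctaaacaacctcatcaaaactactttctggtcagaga
On either strand the GGAA core occurs 1 time in the window of the first start, 4 times in that of the second and 2 times in that of the fourth. So short a core is common: 96.0% of all 32851 RefSeq windows hold at least 1, with a median of 3. The windows of the other genes held 9 (Tie1), 6 (Emcn), 5 (Kdr), 4 (Flt1) and 2 (Tek). As many as 9 are found in 1.59% of all windows, and 6 or more in 15.7%. The longer ETS motif CCGGAAGT, which contains the core, was in none of the 8 windows and is in 3.89% of all. The SOX motif AACAAT, searched on both strands, was in the windows of Emcn, Tek and the fourth Erg start and is in 10.7% of all windows. TATAAA was in the windows of Flt1 and the second Erg start and is in 13.6% of all windows. These matches describe the letters and no binding was measured.

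**Figure D2:**
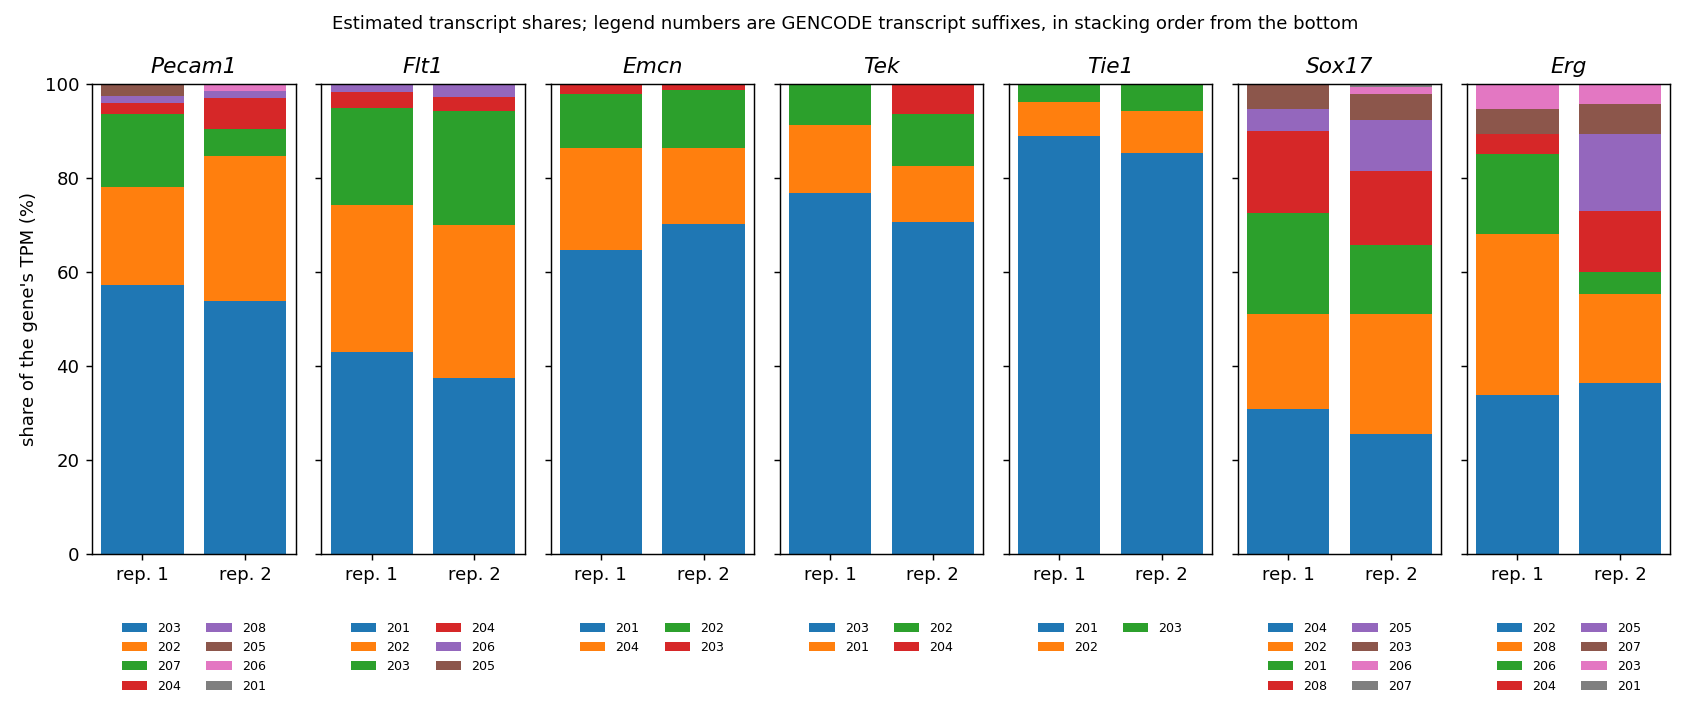
Estimated share of each gene's TPM, in percent, held by its annotated transcripts in replicate 1 (left bar) and replicate 2 (right bar) for the 7 genes with 2 or more transcripts that reach 5% in both libraries; legend numbers are the suffixes of GENCODE transcript names. In replicate 1 and replicate 2, the leading transcript takes 88.9% and 85.2% of Tie1, 76.7% and 70.5% of Tek and 64.7% and 70.2% of Emcn. The Erg bars differ, Erg-208 taking 34.3% in replicate 1 and 18.9% in replicate 2.

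Ordered by mean level, the genes ran Sox18, Emcn, Kdr, Pecam1, Tie1, Cdh5, Flt1, Erg, Sox17 and Tek. The ranges over both libraries separated Sox18 from Emcn, Emcn from Kdr, Pecam1 from Tie1, Tie1 from Cdh5 and Cdh5 from Flt1. The ranges overlapped between Kdr and Pecam1, between Flt1 and Erg, between Erg and Sox17 and between Sox17 and Tek, so the order of these neighbours is not settled. The median of the 10 levels was 18.4 TPM, against 4.79 TPM over all 22028 protein-coding genes and 20.95 TPM over those with a mean of at least 1 TPM. Sox18 stood above 77.7% of protein-coding genes in replicate 1 and 75.4% in replicate 2, and Tek above 55.1% and 56.1%. The identity genes were thus of middling level in this tissue. Their summed level was 187.8 TPM in replicate 1 and 176.4 TPM in replicate 2 (182 ± 8.08 TPM).

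The libraries were then set against each other, as replicate 1 over replicate 2 on the log2(TPM + 1) scale, which understates differences of low genes. Over the 10 genes this log2 ratio ran between -0.25 (Erg) and 0.61 (Sox17), with a median of 0.06, against 0.00 over the 16529 genes with a mean of at least 1 TPM. TPM was higher in replicate 1 for 7 genes, and for 51.1% of all genes tested, and higher in replicate 2 for Pecam1, Erg and Tek. Several of these ratios were close to 0: under M4, 5 genes were higher in replicate 1 and 5 in replicate 2, and with counts scaled by spike-ins all 10 were higher in replicate 1. An absolute log2 ratio of 0.25 was passed by 2 of the 10, Sox17 and Flt1 (0.34), and by 17.9% of all genes tested. How this reads depends on the settings: all 10 genes had a mean of at least 5 TPM, and of all genes at that level 9.54% passed. Erg lay just inside the limit, and with a pseudocount of 0.1 in place of 1 it passed too, which made 3 of the 10. The share of all genes that pass was not taken at that pseudocount, so this count has no background beside it.

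Counting error was taken from the exact 95% interval of the ratio of expected counts, scaled by the gene totals. The reads were amplified and carry no molecular identifiers, so the intervals cover counting error only, and with 1 library on each side no p-value is given. The interval lay above 1 for 5 of the 10 genes and for 15.0% of all genes tested (16.3% of those with a mean of at least 5 TPM). These were Sox17 (ratio 1.70, 1.45 to 2.01), Flt1 (1.24, 1.14 to 1.35), Sox18 (1.15, 1.05 to 1.25), Tie1 (1.11, 1.04 to 1.195) and Kdr (1.08, 1.03 to 1.14). It lay below 1 for 0 of the 10 and for 13.1% of all genes tested (15.2% at that level). For the other 5 the interval held 1: Erg (1.02, 0.887 to 1.16), Cdh5 (1.00, 0.930 to 1.08), Emcn (0.991, 0.896 to 1.10), Tek (0.972, 0.877 to 1.08) and Pecam1 (0.941, 0.876 to 1.01). The median count of the 10 genes was 988 in replicate 1 and 1184 in replicate 2, against 671 and 948 over all genes tested, and 4 of the 10 in replicate 1 and 3 in replicate 2 lay below that background median. With TMM or median-of-ratios scaling the interval of Pecam1 fell just below 1, and with spike-in scaling that of Cdh5 lay above 1. Summed over the 10 genes, the counts were 10538 in replicate 1 and 14040 in replicate 2, a scaled ratio of 1.07 (1.04 to 1.10).

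**Figure D3:**
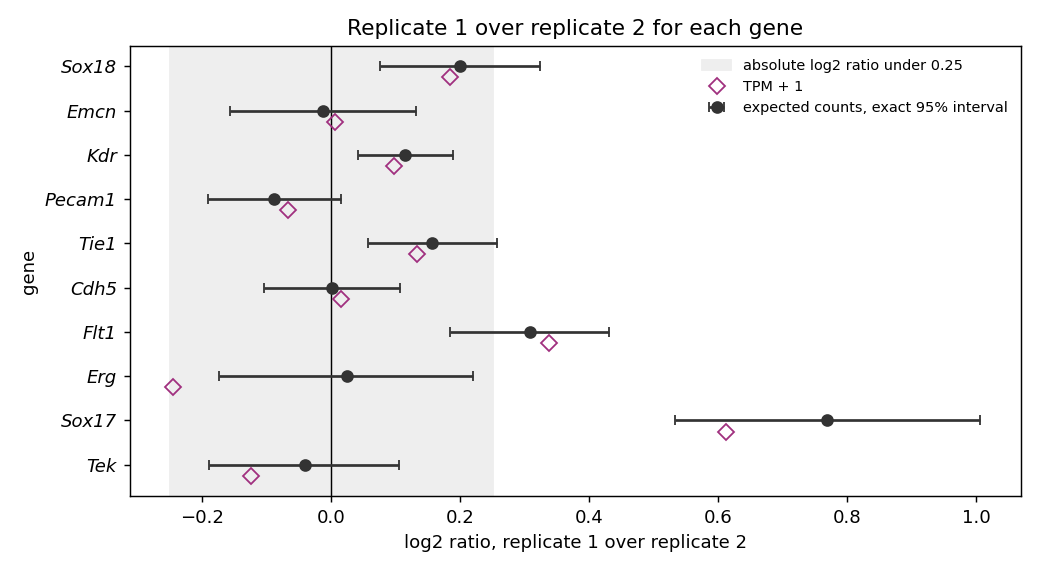
Log2 ratio of replicate 1 over replicate 2 for each gene, ordered by mean level from the top; filled circles with bars are scaled expected counts with the exact 95% interval, open diamonds are TPM + 1, and the grey band marks absolute log2 ratios under 0.25. Sox17 lies farthest to the right, with a count ratio of 1.70, and the diamond of Erg lies well left of its circle.

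The same reads had also been quantified with the older GENCODE release M4. Under M21, 9 of the 10 genes had a lower TPM than under M4 in both libraries. The median log2 difference of the 10 was -0.07 in replicate 1 and in replicate 2. Over the shared genes with a mean of at least 1 TPM it was -0.06 in each. Emcn was the exception: M21 gave 27.62 TPM in replicate 1 and 27.51 TPM in replicate 2, and M4 gave 25.09 and 25.78 TPM. None of the 10 passed an absolute log2 difference of 0.25 in both libraries, which 11.9% of the 15495 shared genes with a mean of at least 1 TPM did. With M4 the range of Emcn overlapped that of Kdr, which had 25.61 TPM in replicate 1 and 23.88 TPM in replicate 2, so that these genes are separated in level with M21 only.

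Other genes of vessels were read beside the 10. All 20 further general endothelial genes were detected, with a median of 10.7 TPM and sums of 442 TPM in replicate 1 and 419 TPM in replicate 2. Egfl7, a secreted endothelial protein, led them at 77.5 ± 2.07 TPM, above Ramp2 at 65.5 and Cd34 at 49.6 TPM, and the phosphatase gene Ptprb was the lowest at 2.35 TPM. TPM was higher in replicate 1 for 16 of the 20, beside 51.1% of all genes tested, with a median log2 ratio of 0.09. The count interval lay above 1 for 8 and below 1 for 1, beside 15.0% and 13.1% of all genes tested. The split by direction was not repeated with M4 or with spike-in scaling for these genes. Of 14 further regulators 13 were detected, with a median of 10.2 TPM. The ETS factors Ets2 and Ets1 were at 54.8 and 35.1 TPM, and Gata2 was at 35.5 TPM. Etv2, an ETS factor of early vessel formation, had 0 counts in each library, and a count of 0 is compatible with up to 3. Among the 14 regulators the interval lay above 1 for 3 and below 1 for 3, beside the same shares of all genes tested.

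Genes known from vessel subtypes were read in the same way, although several of them are also made outside vessels. Of 8 arterial genes 7 were detected, led by Nrp1 with 57.8 TPM in replicate 1 and 55.1 TPM in replicate 2, Efnb2 (38.8 and 40.3) and Hey1 (34.2 and 37.3), and Bmx was lowest at 0.25 and 0.37 TPM. The arterial connexin gene Gja5, named after its values were seen, had 16.2 TPM in replicate 1 and 11.1 TPM in replicate 2, a count ratio of 1.38 (1.25 to 1.51). The 8 arterial genes had 3 intervals above 1 and 1 below, beside 15.0% above 1 and 13.1% below 1 among all genes tested. Of the 4 venous genes 3 had a count interval that held 1, and that of Ephb4 lay below 1: Nr2f2 (76.1 and 77.4 TPM), Ephb4 (68.5 and 71.6), Nrp2 (35.4 and 36.1) and Aplnr (33.5 and 35.4). Of 5 lymphatic genes 4 were detected and every interval held 1, with Pdpn at 29.8, Flt4 at 4.09, Reln at 3.62, Prox1 at 2.79 and Lyve1 at 0.91 TPM on average. The 5 tip cell genes were all detected, Pgf at 13.5, Apln at 4.66, Esm1 at 1.81, Angpt2 at 1.72 and Plaur at 1.37 TPM, and only Pgf had an interval above 1.

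Of 6 genes in the ligand list 5 were detected, all but Angpt4. Vegfb had 41.9 TPM in replicate 1 and 44.9 TPM in replicate 2, above the 12.82 and 9.94 TPM of all transcripts of its receptor gene Flt1. Vegfa, the main Kdr ligand, had 5.24 and 4.07 TPM, below Kdr itself at 24.35 and 22.70 TPM. The Tek ligand Angpt1 had 11.6 and 12.03 TPM, above Tek at 7.69 and 8.47 TPM. Vegfc had 10.2 and 9.16 TPM, Vegfd 1.53 and 1.48 TPM and Angpt4 0.24 and 0.22 TPM. All 6 intervals of this list held 1, beside 15.0% above 1 and 13.1% below 1 among all genes tested. That of Angpt4, from 10 and 13 counts, was wide (0.431 to 2.71). The list left out Angpt2 and Pgf, the gene of PlGF, which were read with the tip cell genes. The count interval of Pgf lay above 1 (1.27, 1.11 to 1.46) and that of Angpt2 held 1. All levels are those of whole tissue and do not say which cells made the ligand.

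Of 8 genes used to mark pericytes, the cells wrapped around small vessels, 7 were detected, with sums of 84.8 TPM in replicate 1 and 85.2 TPM in replicate 2. Pdgfrb was at 50.8, Notch3 at 17.7 and Cspg4 at 7.80 TPM on average, all above the list median of 2.77 TPM. Higd1b had 0 counts in both libraries. The part of pericytes in these levels was not tested. The mesenchyme and red cell lists had medians above the 18.4 TPM of the 10 identity genes, as did the venous (52.9 TPM) and cartilage (104 TPM) lists. All 6 mesenchyme genes were above Sox18, the highest identity gene, at 32.2 TPM. The lowest of them, Twist1, was below the further endothelial gene Egfl7 at 77.5 TPM. Of the red cell genes, Slc4a1 was below Sox18. The 6 mesenchyme genes had a median of 121 TPM (Col3a1 933, Col1a1 445, Prrx1 143, Pdgfra 98.7, Prrx2 88.7 and Twist1 64.4 TPM), and the 6 red cell genes a median of 258 TPM (Hbb-y 7369, Hba-x 1334, Hbb-bh1 483, Alas2 33.0 and Slc4a1 19.9 TPM among them). Among the 6 red cell genes 4 had an interval above 1 and 0 below, beside 15.0% and 13.1% of all genes tested.

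**Figure D4:**
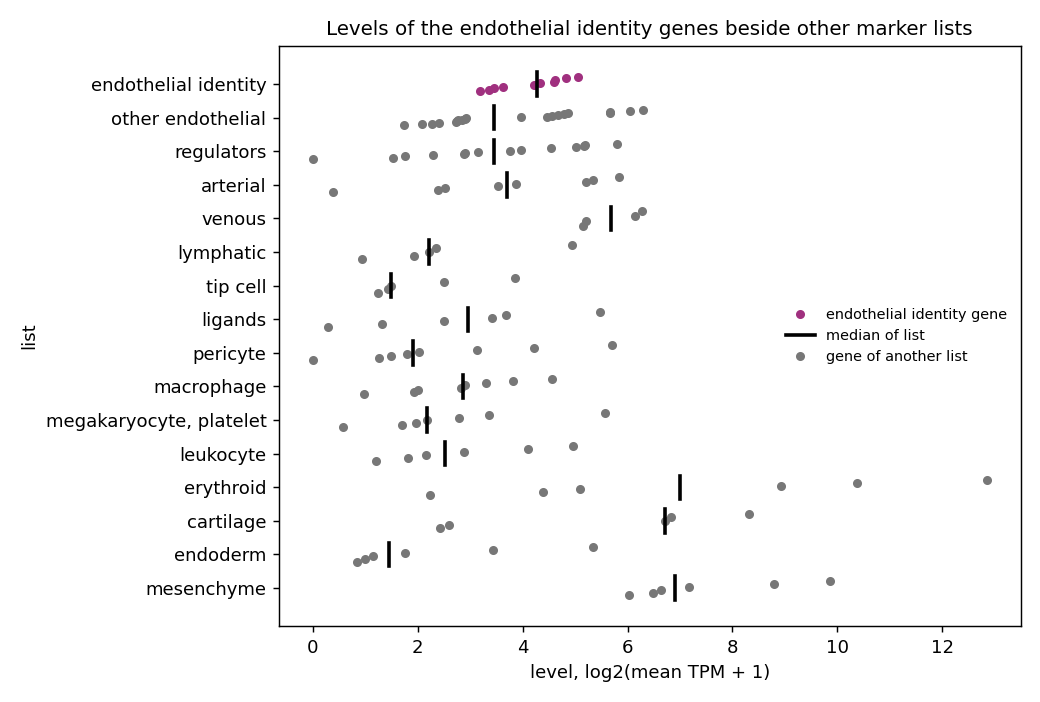
Mean level of each gene, as log2(mean TPM + 1), by list, with the 10 endothelial identity genes in purple at the top and a black bar at each list's median. The identity genes run from 8.08 to 32.2 TPM, with a median level of 18.4 TPM. The medians of the mesenchyme (121 TPM) and venous (52.9 TPM) lists are higher. Those of the arterial (12.1 TPM), other endothelial (10.7 TPM), regulator (10.2 TPM) and pericyte (2.77 TPM) lists are lower.

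**Figure D5:**
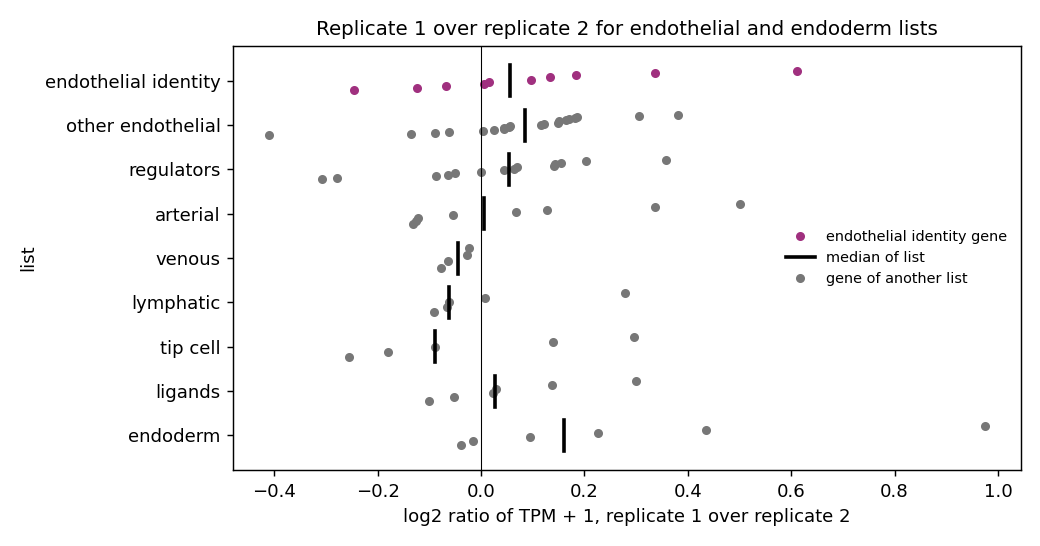
Log2 ratio of TPM + 1, replicate 1 over replicate 2, for the genes of the vessel and endoderm lists, with a black bar at each list's median. The identity genes have a median of 0.06 and the other endothelial genes 0.09, the 4 venous genes lie between -0.08 and -0.02, and Nkx2-1 of the endoderm list lies farthest right at 0.97.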

How the data were processed

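PolyA plus RNA-seq of 2 libraries of 1 tissue was used. Per the file headers, the deposited gene and transcript tables hold an expected count, TPM (as a maximum-likelihood and a posterior mean estimate) and FPKM, and the transcript tables also the percent of a gene's abundance held by each transcript. The tables were made by the authors on mm10 with GENCODE M21 and again with M4, per the labels. Aligner, quantifier and strand setting: not given in the sources used here. The deposited effective length of long features was the length minus 99 bases. Only the rows of 55536 named genes entered the count totals, and other rows held 2.85% and 3.10% of counts, nearly all of them counts of spike-ins. Levels were taken from deposited TPM, as mean ± SD over n = 2. Intervals were exact (Clopper-Pearson, 95%) for the ratio of expected counts rounded to whole numbers, and their calculation was tested on simulated data. The filter was a mean of at least 1 TPM. With n = 2 the smallest p of an exact sign-flip test is 0.5, so no test was made. The labels call the libraries biological replicates, and the spread covers these 2 pools only. Scripts ran in Python 3.11.15 with pandas 2.3.3 and scipy 1.17.1. Alternatives scaled the expected counts by TMM in edgeR 4.0.16, by median of ratios in DESeq2 1.42.0 or by spike-ins. The members and the 15 companion lists of 114 genes were chosen with earlier results of these data known. Of each list the 3 highest and the lowest gene by mean TPM are named, and every gene of lists of up to 6. Gene Gja5 is named beyond this rule. Values of 2 listed genes that this rule would name are not reported here. Sequences came from mm10 and the GENCODE M21 annotation, and promoter windows from RefSeq.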

Additional observations from a re-analysis of the deposited data

How the results depend on the processing

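No paired analysis was possible because both libraries belong to 1 group. The median level of the 10 genes was 18.4 TPM, 19.2 TPM with M4 and 19.7 TPM with TPM taken over genes only. Without 1 replicate, levels of single genes ranged between 0.768 and 1.23 times the mean of both. Against gene totals, 0 genes had a count interval below 1, and with TMM and with median of ratios 1 did, Pecam1. Spike-in scaling raised every log2 ratio by 0.13. It put Cdh5 above 1 as well and turned the log2 count ratio of Pecam1 to 0.04, with an interval that held 1. Sox17, Flt1, Sox18, Tie1 and Kdr had intervals above 1 under all 4 scalings. The log2 TPM ratio of Erg, -0.25, was -0.27 with a pseudocount of 0.1, past the limit. The share of all genes past 0.25 was 17.9%, 10.4% with no filter and 9.54% at a mean of at least 5 TPM. With no filter, 5.29% of genes had an interval above 1 and 4.54% below 1, against 15.0% and 13.1%, and 16.3% and 15.2% at a mean of at least 5 TPM. No value changed its call to the opposite direction under these settings. The exons, coding forms and starts whose shares are given were chosen after seeing the data. Counts of single transcripts carry posterior SDs that limit the transcript shares.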
